A study of Mus musculus with 8 samples.

Results

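The smooth muscle and pericyte markers of the heart are 10 genes, Acta2, Tagln, Myh11, Cnn1, Rgs5, Pdgfrb, Notch3, Cspg4, Myocd and Abcc9, found by their symbols among the 17190 genes of the count table. The hearts came from male mice on standard chow, 4 Gpihbp1-/- (KO, mice 1, 2, 3 and 4) and 4 wildtype (WT, mice 2, 4, 5 and 6), and the study asked how Gpihbp1 deficiency affects the heart. Gpihbp1 is the capillary endothelial protein that brings lipoprotein lipase to the vessel lumen. Age, strain and the construction of the allele are not given in the sources used here, nor whether the mice were littermates or the hearts were collected together, so the tests speak of the spread among these 8 hearts, which may be technical in part.

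Smooth muscle cells wrap the coronary arteries and contract them, and pericytes lie along the capillaries, next to the endothelium that makes Gpihbp1. Smooth muscle cells share a contractile programme that the transcription factor SRF switches on through CArG boxes in DNA, with myocardin (Myocd) as its coactivator. Pericytes depend on PDGF-B from the endothelium acting on the receptor Pdgfrb, and Notch3 receives Notch ligands in both kinds of mural cell. Acta2, Tagln and Cnn1 are also made by myofibroblasts, the activated fibroblasts of injured hearts, while Myh11 is more closely tied to smooth muscle. Myocd and Abcc9 are also expressed in cardiomyocytes. In whole hearts, fewer cells of a type and less RNA per cell cannot be told apart.

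RefSeq promoters (assembly GRCm38.p6, 250 bases before to 50 after the start) were searched for 6 of the 10 genes. Tagln, Myh11 and Myocd had no promoter at hand, and that of Pdgfrb was left out of the search. The promoters of Acta2, Cnn1 and Rgs5 are shown because Acta2 and Cnn1 were high in the same hearts in which Rgs5 was low. They lie at chr19:34255324-34255623 on the minus strand and at chr9:22099003-22099302 and chr1:169655251-169655550 on the plus strand. Capitals mark matches to a CArG box in which 1 G or C was allowed among the 6 central bases.
Acta2: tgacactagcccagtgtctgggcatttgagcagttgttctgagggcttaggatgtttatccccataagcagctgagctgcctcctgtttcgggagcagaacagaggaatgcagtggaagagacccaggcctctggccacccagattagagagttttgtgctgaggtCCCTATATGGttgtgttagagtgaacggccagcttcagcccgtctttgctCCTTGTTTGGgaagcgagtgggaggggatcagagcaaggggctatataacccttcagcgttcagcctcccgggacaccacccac
Cnn1: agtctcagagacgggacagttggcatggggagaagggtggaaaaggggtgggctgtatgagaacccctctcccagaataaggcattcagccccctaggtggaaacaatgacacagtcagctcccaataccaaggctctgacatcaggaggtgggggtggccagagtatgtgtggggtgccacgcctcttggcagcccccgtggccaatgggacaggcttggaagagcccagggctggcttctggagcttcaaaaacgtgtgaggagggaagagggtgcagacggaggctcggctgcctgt
Rgs5: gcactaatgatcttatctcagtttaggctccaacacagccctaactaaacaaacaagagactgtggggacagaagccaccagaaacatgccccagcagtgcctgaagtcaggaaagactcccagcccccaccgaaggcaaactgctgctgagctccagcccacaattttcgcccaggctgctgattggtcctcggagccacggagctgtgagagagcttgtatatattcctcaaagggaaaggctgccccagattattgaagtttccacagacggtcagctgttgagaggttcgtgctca

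The CArG box, whose form is the same on either strand, had no exact match in the 6 promoters, and 1.63% of the 32851 promoters in the table held one. With 1 G or C allowed, a setting added after that search, Acta2 held CCCTATATGG at bases -84 to -75 and CCTTGTTTGG at bases -34 to -25, counted from the start. It was the only one of the 6 with a match, against 9.98% of all promoters. The motif TGGGAA of the Notch effector RBPJ, searched on both strands, lay at bases -27 to -22 of Acta2, overlapping the second match, and at -221 to -216 of Abcc9. It was found in 25.6% of all promoters. These are letter matches in short windows, and binding was not measured.

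Library totals ran from 9065561 to 13492971 estimated counts. The label of every library was checked on the targeted gene: Gpihbp1 (NCBI gene 68453) had 0, 0, 1 and 0 reads in KO 1, 2, 3 and 4, against 1108, 1951, 833 and 1783 reads in WT 2, 4, 5 and 6. All 12 cardiomyocyte markers were read, with summed levels of at least 53095 TPM in every heart. TPM, the deposited unit that divides reads by gene length and by library, allows levels of different genes to be compared. The summed lung epithelium markers stood at 0.13 to 1.58 TPM over all hearts, and 3 of the 6 were in the table.

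Some hearts stood apart in both groups. KO 2 and WT 2 had the largest totals, 13443538 and 13492971 counts. Their 12 myofibroblast markers summed to 4181 and 2899 TPM, against 149 to 208 TPM in the other KO hearts and 83.0 to 234 TPM in the other WT hearts. Their 12 cardiomyocyte markers were the lowest, at 54514 TPM in KO 2 and 53095 TPM in WT 2, against 104605 to 118704 TPM in the other KO hearts and 101046 to 108702 TPM in the other WT hearts. Their 12 macrophage markers summed to 5020 and 5979 TPM, against 814 to 961 TPM in the other KO hearts and 508 to 895 TPM in the other WT hearts. The 8 atrial markers summed to 10815.5 TPM in KO 2, 5955 TPM in WT 2 and 5032 TPM in WT 6, against 377 to 628 TPM in the other KO hearts and 426 to 497 TPM in the other WT hearts. Nppa, a natriuretic peptide gene that stressed ventricles also express, made up most of this in KO 2 and WT 2, at 10791 and 5933 TPM, and stood at 2807 TPM in WT 6. Of the same list, Myl4, Myl7 and Sln were above a trace in WT 6 alone, at 804, 643 and 665 TPM, against at most 3.56, 1.72 and 0.87 TPM in the others. The fold change of each marker is given with all 8 hearts, and again without KO 2, WT 2 and WT 6.

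Between the genotypes, 0 of the 10 markers passed the test. In edgeR's quasi-likelihood test over 12826 genes, in which 4 genes, 0.0312%, passed an adjusted p of 0.05 (3 higher in KO hearts, 0.0234%, and 1 lower, 0.0078%), each marker had an adjusted p of 0.99998. The 4 genes were Arc, H3c14 and Psca, higher in KO hearts, and Gpihbp1, lower in them. At an unadjusted p under 0.05 there were 0 of 10 markers, with 0.904% of all genes there, and DESeq2 and limma likewise passed 0 of 10. The KO and WT values overlapped for all 10 markers; groups that do not overlap were found for 0.632% of all genes. The log2 fold changes (KO over WT) were positive for 5 markers and negative for 5, with a median of 0.026, beside a median of -0.019 and 47.1% positive over all tested genes. With KO 2 and WT 2 left out, and with WT 6 left out as well, 0 of 10 passed.

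**Figure D1:**
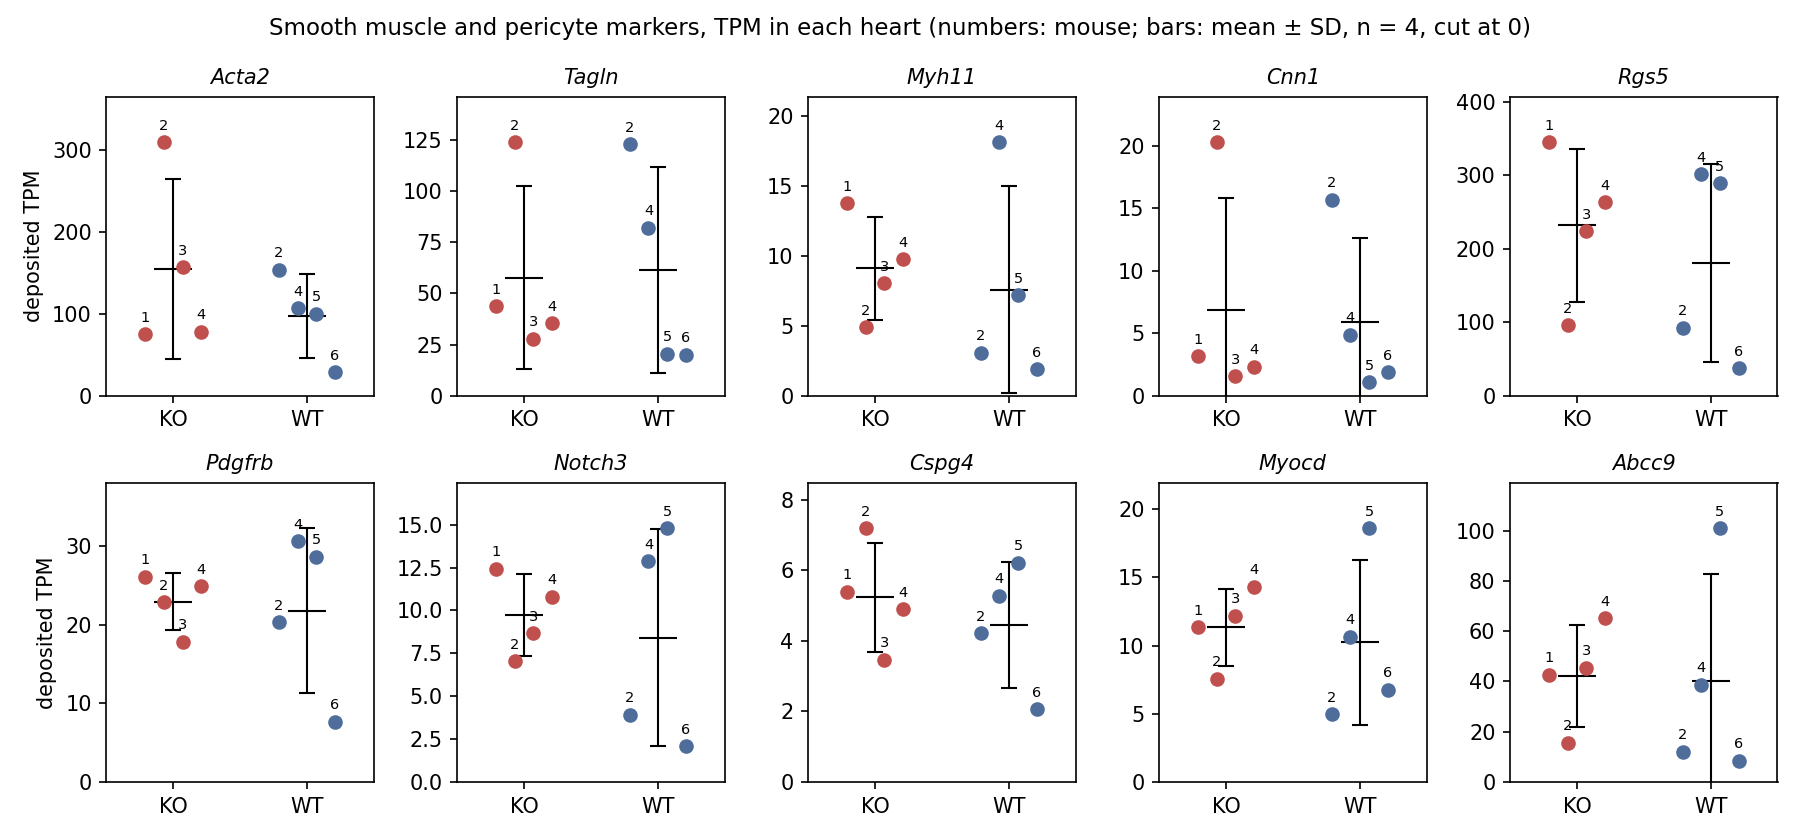
Deposited TPM of each marker (vertical axis, linear from 0) in KO hearts, left, and WT hearts, right; points are hearts with their mouse number, and bars are the mean and SD of 4 hearts, cut at 0. KO 2 and WT 2 are the highest of their groups in Tagln and Cnn1, and the genotypes overlap in all 10 panels.

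By mean TPM over the 8 hearts, Rgs5 came first at 206, followed by Acta2 at 126, Tagln at 59.5, Abcc9 at 41.1 and Pdgfrb at 22.4 TPM. Below these came Myocd at 10.8, Notch3 at 9.08, Myh11 at 8.34, Cnn1 at 6.36 and Cspg4 at 4.84 TPM. Few steps of this order held in every heart: Acta2 was above Tagln and Pdgfrb above Myocd in 8 of 8 hearts. Rgs5 was above Acta2 in 6 of 8 hearts and Tagln above Abcc9 in 5 of 8. Cnn1 had the higher mean but was above Cspg4 in 2 of 8 hearts, so the order of those neighbours rested on those hearts.

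The contractile genes come first. Acta2 (NCBI gene 11475) encodes smooth muscle alpha-actin, the actin of the contractile filament. It stood at 99.6, 393, 227 and 97.3 CPM in KO 1, 2, 3 and 4, and at 307, 170.4, 109 and 124 CPM in WT 2, 4, 5 and 6, where CPM is the count scaled to library size by the TMM method, for comparing hearts and not genes. The highest hearts of the groups were KO 2 and WT 2, and KO 3 came next among the KO hearts. The means were 204 ± 140 CPM in KO hearts and 178 ± 90.1 CPM in WT hearts (SD, n = 4 each), and the log2 fold change was 0.20 with a standard error of 0.52 and a 95% interval from -0.97 to 1.37 (edgeR unadjusted p = 0.707). Without KO 2, WT 2 and WT 6 it was 0.015 (standard error 0.43). Acta2 closely resembles the cardiac actin gene Actc1, so reads can be divided between them. Actc1 stood at 10369 to 19358 TPM in KO hearts and 6755 to 20349 TPM in WT hearts. By CPM, Actc1 was highest among the KO hearts in KO 3, at 19646. Among the WT hearts it was highest in WT 5, at 16932 CPM, the heart with the lowest Acta2 CPM of that group. The part of Actc1 in the Acta2 values was not tested.

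Tagln (NCBI gene 21345) encodes transgelin, an actin-binding protein of smooth muscle. It had 44.7, 112, 31.1 and 36.4 CPM in KO 1, 2, 3 and 4, and 141, 83.4, 18.9 and 50.3 CPM in WT 2, 4, 5 and 6. KO 2 stood well above the other KO hearts, WT 2 was the highest of all and WT 5 the lowest. The log2 fold change was -0.39 with a standard error of 0.60 and an interval from -1.74 to 0.96, and -0.45 (standard error 0.54) without KO 2, WT 2 and WT 6.

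Cnn1 (NCBI gene 12797), which encodes calponin 1, a regulator of the actin filament in smooth muscle, was highest in the same pair of hearts, at a low level. Its levels were 2.83, 16.0, 2.06 and 2.07 CPM in KO 1, 2, 3 and 4, against 15.7, 4.37, 0.873 and 4.22 CPM in WT 2, 4, 5 and 6. These rested on as few as 10 reads in WT 5 and 21 in KO 3. Both KO 2 and WT 2 were far above the rest, and the log2 fold change of -0.13 had the widest interval of the 10 markers, from -2.17 to 1.90. It was -1.44 without KO 2, 0.88 without WT 2, and -0.16 (standard error 0.62) without KO 2, WT 2 and WT 6.

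Myh11 (NCBI gene 17880), the smooth muscle myosin heavy chain, did not follow the other contractile genes. It had 50.4, 16.0, 31.1 and 36.0 CPM in KO 1, 2, 3 and 4, and 11.8, 62.6, 25.3 and 15.04 CPM in WT 2, 4, 5 and 6. KO 2 was the lowest KO heart and WT 2 the lowest WT heart, the reverse of their places for Acta2, Tagln and Cnn1. The log2 fold change was 0.22 with a standard error of 0.54 and an interval from -0.99 to 1.42. Without WT 4, the highest heart, it was 0.95 (edgeR unadjusted p = 0.0577, adjusted p = 0.9994), and without KO 2, WT 2 and WT 6 it was -0.16 (standard error 0.40).

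Ratios of TPM within a heart show the same contrast, and the scaling to library size cancels in them. The gene-length part of TPM does not cancel, and it was not the same in every heart. The ratio of Acta2 to Myh11 TPM was 5.46, 63.2, 19.6 and 7.999 in KO 1, 2, 3 and 4, and 49.9, 5.88, 14.02 and 15.2 in WT 2, 4, 5 and 6. For Tagln to Myh11 it was 3.18, 25.2, 3.46 and 3.63 in the KO hearts and 39.9, 4.52, 2.86 and 10.7 in the WT hearts, in the same order of mice. KO 2 and WT 2 were the highest hearts in both ratios and in that of Cnn1 to Myh11, which was 4.14 in KO 2 and 5.10 in WT 2, against 0.195 to 0.237 in the other KO hearts and 0.151 to 0.995 in the other WT hearts. These are the hearts with the high myofibroblast and macrophage marker sums given above, and the part of those cells in the ratios was not tested.

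**Figure D2:**
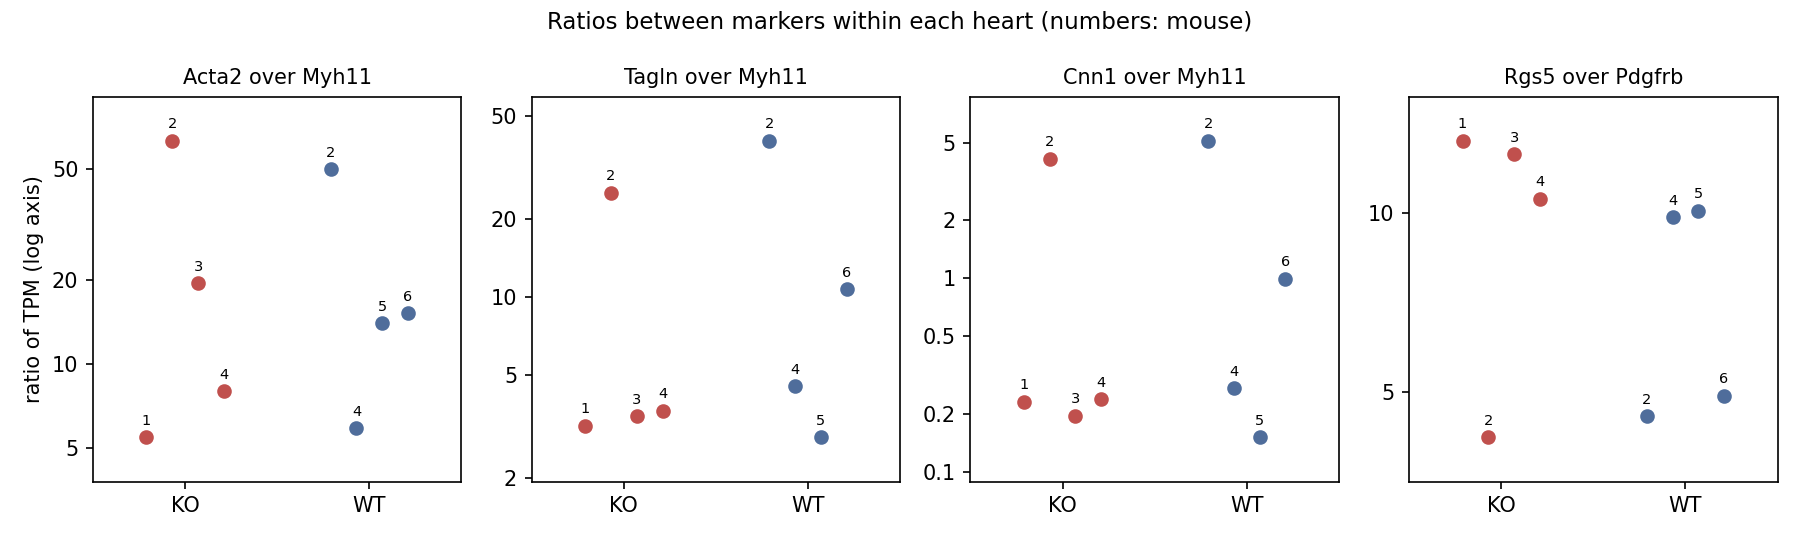
Ratio of the TPM of 2 markers within each heart (vertical axis, logarithmic), KO left and WT right, points labelled by mouse number. KO 2 and WT 2 are highest in the ratios of Acta2, Tagln and Cnn1 to Myh11 and lowest in that of Rgs5 to Pdgfrb, at 4.19 and 4.54.

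Myocd (NCBI gene 214384), the SRF coactivator, had 64.5, 37.1, 75.5 and 81.1 CPM in KO 1, 2, 3 and 4, and 30.7, 60.1, 92.6 and 94.3 CPM in WT 2, 4, 5 and 6. The lowest hearts of the groups were KO 2 and WT 2, which were highest for Acta2, Tagln and Cnn1. The log2 fold change was -0.10, with an interval from -0.96 to 0.75, and -0.050 (standard error 0.25) without KO 2, WT 2 and WT 6. The low hearts KO 2 and WT 2 are those with the low cardiomyocyte marker sums given above, whose part in the Myocd values was not tested. Of 16 tested genes of the SRF and myocardin regulators, 0 passed, 6 had positive and 10 negative log2 fold changes, and the median was -0.048. Srf itself had a log2 fold change of -0.078 (standard error 0.31), and Mrtfa, a coactivator related to myocardin that answers to actin, had -0.29 (standard error 0.31) and -0.066 without WT 2. Mrtfa stood at 25.3 CPM in KO 2 and 11.6 to 14.6 CPM in the other KO hearts, and at 28.9 CPM in WT 2 and 15.04 to 19.2 CPM in the other WT hearts, so these hearts were high for Mrtfa and low for Myocd.

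The other smooth muscle contractile genes numbered 22, all tested, with 0 past the threshold, 10 positive and 12 negative log2 fold changes and a median of -0.038. Myl9, the regulatory light chain of smooth muscle myosin, had a log2 fold change of -0.54 (standard error 0.40) and -0.29 without WT 6, with 31.6 to 44.2 CPM in KO hearts and 19.996 to 84.5 CPM in WT hearts. Mylk, the kinase that phosphorylates that light chain, had 0.17 (standard error 0.39). Mylk was at 18.8 CPM in KO 2 and 18.3 CPM in WT 2, the lowest KO heart and the second lowest WT heart. That is the pattern of Myh11 and not that of Acta2, but the list was mixed. Tpm2, at 67.6 and 61.1 CPM, and Cnn2, at 217 and 205 CPM, were highest of each group in KO 2 and WT 2. Smtn was lowest of each group there, at 105 and 92.7 CPM. One member, Pln, is a cardiomyocyte marker as well and made up much of the summed level of this list.

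Among the pericyte and mural surface genes, Rgs5 was the most abundant. Rgs5 (NCBI gene 19737), a regulator of G-protein signalling typical of pericytes, had 1012, 248, 721 and 771 CPM in KO 1, 2, 3 and 4, and 302, 877, 764 and 266 CPM in WT 2, 4, 5 and 6. KO 2, WT 2 and WT 6 were the low hearts, and the other 5 lay close together. The means were 688 ± 320 CPM in KO hearts and 552 ± 314 CPM in WT hearts (SD, n = 4 each), with a log2 fold change of 0.32, a standard error of 0.54 and an interval from -0.90 to 1.53 (edgeR unadjusted p = 0.571). Without KO 2, WT 2 and WT 6 the log2 fold change was 0.026 with a standard error of 0.27.

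Notch3 (NCBI gene 18131), the Notch receptor of mural cells, had the same 3 low hearts. It had 74.1, 37.1, 56.8 and 64.3 CPM in KO 1, 2, 3 and 4, and 26.3, 76.1, 79.6 and 29.9 CPM in WT 2, 4, 5 and 6. These 3 stood below the other 5, and the log2 fold change was 0.13 with an interval from -0.78 to 1.04. Without those hearts it was -0.26 (standard error 0.20).

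Abcc9 (NCBI gene 20928), the regulatory subunit SUR2 of the ATP-sensitive potassium channel, spread most among the pericyte and mural surface genes. It had 231.5, 75.5, 271 and 354 CPM in KO 1, 2, 3 and 4, and 73.5, 208, 502 and 110.2 CPM in WT 2, 4, 5 and 6. KO 2, WT 2 and WT 6 were lowest here too, and WT 5 was the highest heart. The log2 fold change was 0.060 with an interval from -1.37 to 1.49, and without KO 2, WT 2 and WT 6 it was -0.31 (standard error 0.41). The cardiomyocyte markers were low in KO 2 and WT 2 but not in WT 6, at 104557 TPM, and their part in the Abcc9 values was not tested.

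The channel's other subunits gave 0 of 3 past the threshold. Kcnj8, the pore that pairs with SUR2 in vessels, had a log2 fold change of -0.39 (standard error 0.37), and Kcnj11, the pore of the cardiomyocyte channel, had 0.28 (standard error 0.50). Single hearts moved both: Kcnj8 was -0.13 without KO 2, and Kcnj11 was 0.020 without WT 2 and 0.60 without WT 5. The ratio of Abcc9 to Kcnj8 TPM was 1.38, 1.41, 1.81 and 2.49 in KO 1, 2, 3 and 4 and 0.678, 0.960, 3.31 and 0.562 in WT 2, 4, 5 and 6, so that 3 of the 4 WT hearts lay below every KO heart and WT 5 above them all.

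By CPM, Pdgfrb and Cspg4 varied least. Pdgfrb (NCBI gene 18596), the receptor for PDGF-B, had 100.03, 79.5, 76.9 and 97.4 CPM in KO 1, 2, 3 and 4, and 89.4, 118, 100.5 and 72.9 CPM in WT 2, 4, 5 and 6. By CPM no heart stood apart, while by TPM WT 6 was at 7.63, against 17.9 to 26.1 in KO hearts and 20.35 to 30.65 in the other WT hearts; the log2 fold change was -0.11 with a standard error of 0.23 and an interval from -0.61 to 0.40, and -0.26 (standard error 0.22) without KO 2, WT 2 and WT 6. Cspg4 (NCBI gene 121021), the proteoglycan NG2 of the pericyte surface, had 32.1, 37.9, 22.6 and 29.1 CPM in KO 1, 2, 3 and 4, and 28.1, 31.2, 33.4 and 29.8 CPM in WT 2, 4, 5 and 6. By CPM its WT hearts spanned a 1.19-fold range, the smallest within-group range of the 10 markers on that scale, where that of Cnn1 in WT hearts was 18.03-fold. By TPM, Cspg4 ran from 2.06 to 6.21 in WT hearts, with WT 6 the lowest. The log2 fold change of Cspg4 was -0.0087 with an interval from -0.47 to 0.45, and -0.21 (standard error 0.20) without KO 2, WT 2 and WT 6. With Myocd, these were the 3 of 10 markers whose interval left out a 2-fold change either way. For the other 7 a change of that size, up or down or both, cannot be told from none with these hearts. The standard errors of Pdgfrb, Cspg4 and Myocd were 0.23, 0.21 and 0.38 here, and 0.31, 0.29 and 0.34 with total-count scaling. In limma on log2(TPM + 0.1) they were 0.43, 0.44 and 0.45. That setting changes the unit and the model as well as the scaling, so the wider errors cannot be assigned to 1 of these.

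**Figure D3:**
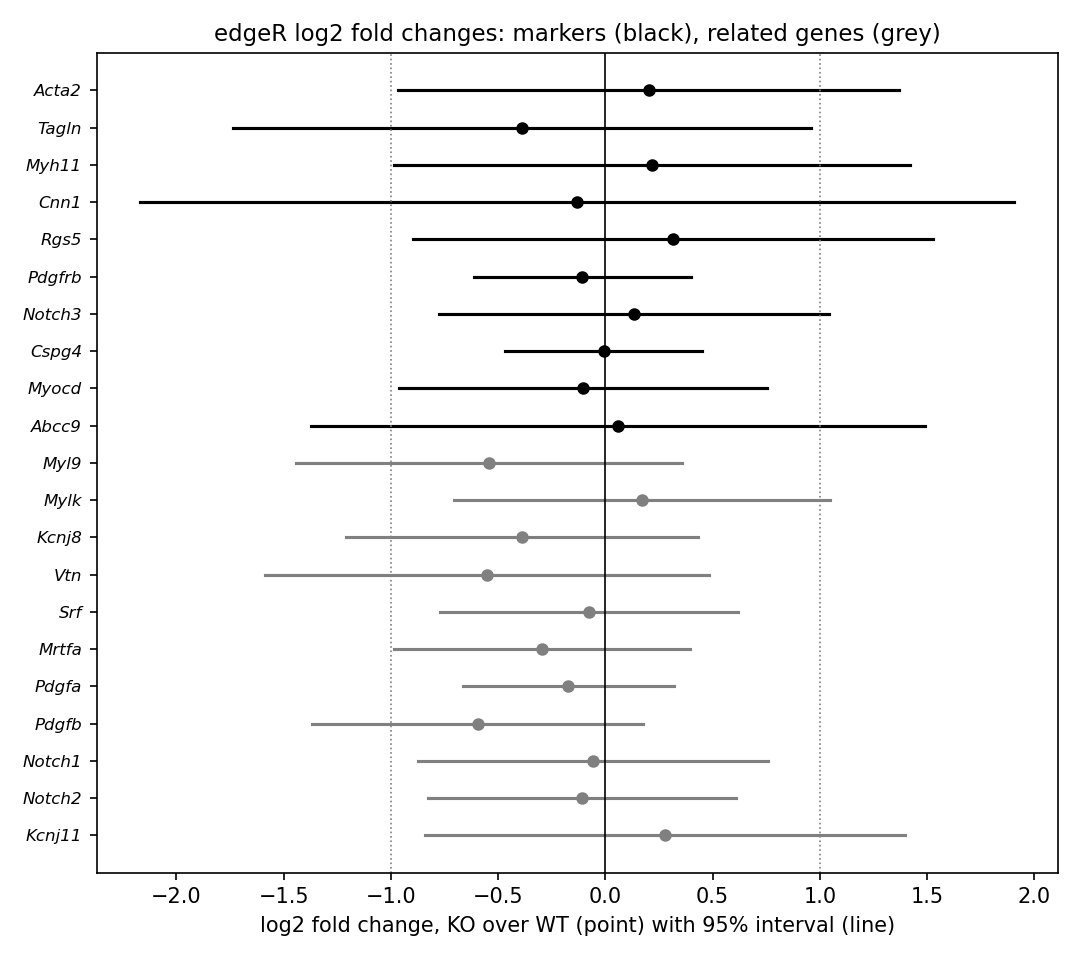
Log2 fold changes of KO over WT hearts (horizontal axis) from edgeR's quasi-likelihood fit, as points with 95% intervals, for the 10 markers (black) and 11 related genes (grey); dotted lines mark a 2-fold change. Every interval spans 0, and those of Pdgfrb, Cspg4 and Myocd lie between the dotted lines among the markers.

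Rgs5 was also set against Pdgfrb within each heart. The ratio of their TPM was 13.2, 4.19, 12.5 and 10.6 in KO 1, 2, 3 and 4, and 4.54, 9.83, 10.1 and 4.92 in WT 2, 4, 5 and 6. KO 2, WT 2 and WT 6 were the low hearts, and the genotypes overlapped. WT 6, the heart with Myl4, Myl7 and Sln, also had the lowest TPM of 8 markers but the lowest CPM of only 1, and its TMM factor of 0.678, which enters CPM and not TPM, was the smallest, the others lying between 0.964 and 1.16.

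**Figure D4:**
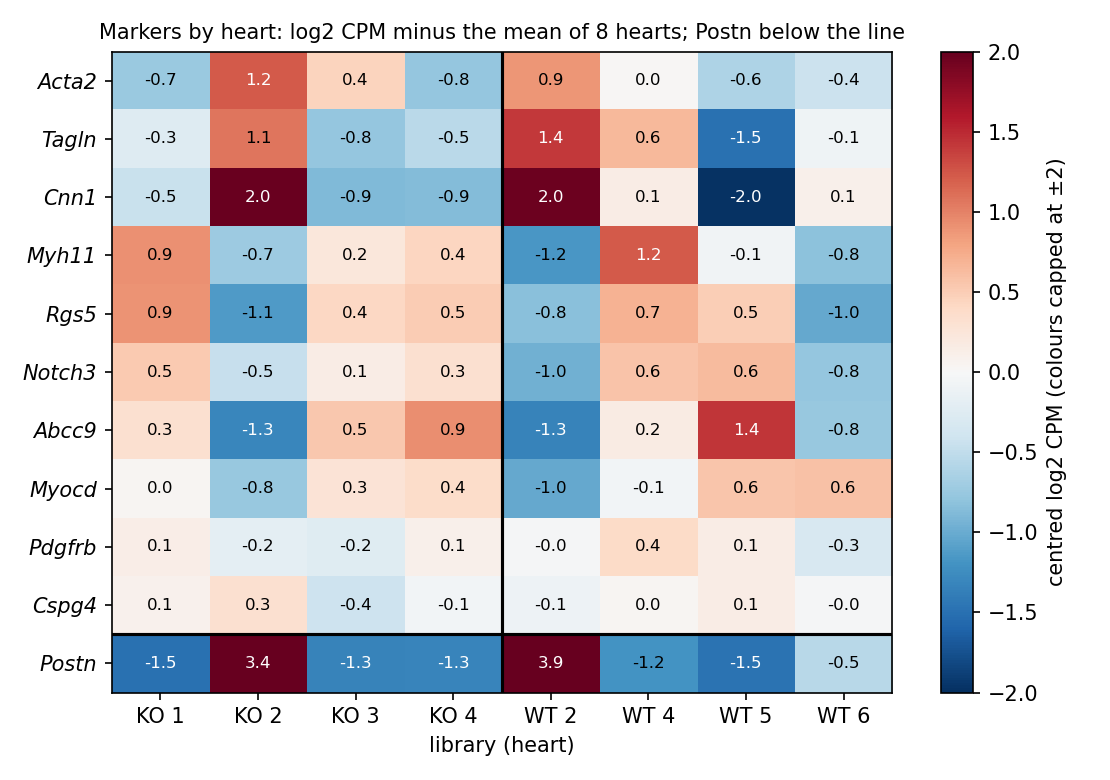
Log2 CPM of each marker minus its mean over the 8 hearts, KO hearts left of the vertical line and WT hearts right of it, with the myofibroblast gene Postn in the bottom row; colours are capped at 2 in either direction and the numbers are not. Acta2, Tagln and Cnn1 are high in KO 2 and WT 2, in which Postn is also high, while Myh11, Rgs5, Notch3, Abcc9 and Myocd are low there.

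Over all markers, by CPM, KO 2 and WT 2 were the 2 highest hearts for Acta2, Tagln and Cnn1, and both were among the 3 lowest for Myh11, Rgs5, Notch3, Abcc9 and Myocd. WT 6 joined them as the third low heart for Myh11, Rgs5, Notch3 and Abcc9, but had the highest Myocd on that scale, at 94.3 CPM; by TPM it was the second lowest for Myocd, at 6.77 beside 4.95 in WT 2. For Acta2, by TPM, KO 3 at 157 was just above WT 2 at 154. Postn, a matrix protein of activated fibroblasts, stood at 1069 CPM in KO 2 and 35.5 to 39.8 CPM in the other KO hearts, and at 1532 CPM in WT 2 and 35.5 to 68.2 CPM in the other WT hearts. The endothelial markers summed to 538 TPM in KO 2 and 410.4 TPM in WT 2, against 696 to 1182 TPM in the other KO hearts and 394 to 1582 TPM in the other WT hearts. Both hearts thus combined low endothelial and low Rgs5 levels with a Pdgfrb level inside the range of the rest, and the part of cell composition in this was not tested. By TPM, WT 6 was lower still in the endothelial sum and in Rgs5, at 394 and 37.5 TPM. By CPM the endothelial sums were 954 in KO 2, 826 in WT 2 and 1473 in WT 6.

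Genes outside the list were ranked by how closely their profile over the 8 hearts, as log2 CPM centred on the gene's mean, matched the mean profile of Acta2, Tagln, Myh11 and Cnn1. The closest were Nat2, Igfbp7, Tspan6, Ap1g2 and Ptms, with root mean square differences of 0.16, 0.18, 0.18, 0.18 and 0.19 log2 units. The contractile genes themselves lay at 0.36 for Tagln, 0.44 for Acta2, 0.75 for Cnn1 and 1.12 for Myh11 from their own mean. That mean joins Myh11 with genes that went the other way in KO 2 and WT 2. In this and the next ranking the outside genes were picked as the closest of all, so their smaller differences follow from the choice. Closest to the mean profile of Rgs5, Pdgfrb, Notch3, Cspg4 and Abcc9 were Pcmtd2 at 0.085, Klf12 at 0.097, and Aplp2, Adat1 and the calcium channel gene Cacna1c at 0.11 each. Among these 5 pericyte and mural surface genes Notch3 was nearest at 0.16, followed by Pdgfrb and Rgs5 at 0.36, Cspg4 at 0.52 and Abcc9 at 0.55.

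The ligands and targets that act on mural cells were compared next. Of 5 PDGF ligand and receptor genes, 0 passed, 2 had positive and 3 negative log2 fold changes, and the median was -0.17. Pdgfb, the endothelial ligand that recruits pericytes, had 115, 67.9, 92.1 and 72.3 CPM in KO 1, 2, 3 and 4, and 76.9, 219, 110.1 and 119 CPM in WT 2, 4, 5 and 6. WT 4 was far above the other hearts and the groups overlapped. The endothelial marker sum was also highest in WT 4, at 3211 CPM, and among the KO hearts in KO 1, at 2605 CPM. The part of endothelial cells in the Pdgfb values was not tested. The log2 fold change was -0.59 with a standard error of 0.34 and an interval from -1.37 to 0.18 (edgeR unadjusted p = 0.116, adjusted p = 0.99998). Without WT 4 it was -0.22 (edgeR unadjusted p = 0.452), and without KO 2, WT 2 and WT 6, which keeps WT 4, it was -0.82 (edgeR unadjusted p = 0.0489, adjusted p = 0.99986). Pdgfa, a related ligand, had -0.17 (standard error 0.22).

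Of 19 tested Notch ligands, receptors and targets, 0 passed, with 10 positive and 9 negative log2 fold changes and a median of 0.031. Notch1, which acts in endothelium, had -0.059 (standard error 0.36), and Notch2, which smooth muscle also carries, had -0.11 (standard error 0.32). The other pericyte genes gave 0 of 19 past the threshold, 6 positive and 13 negative, with a median of -0.055. Vtn, the secreted protein vitronectin that cardiac pericytes make, had -0.55 (standard error 0.46), and -0.27 without KO 2. It stood at 42.7, 10.4, 31.3 and 33.9 CPM in KO 1, 2, 3 and 4, and 19.9, 60.4, 35.7 and 57.6 CPM in WT 2, 4, 5 and 6. KO 2 and WT 2 were the lowest of each group for Vtn, but genes of this list went either way. Colec11 was also lowest of each group in KO 2 and WT 2, at 10.8 and 21.7 CPM. Anpep was highest of each group there, at 58.5 and 42.6 CPM.

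Further lists gave no gene past the threshold. Of the RGS family other than Rgs5, 13 were tested, 3 positive and 10 negative, with a median of -0.16, and of 16 genes of TGF-beta signalling 7 were positive and 9 negative, with a median of -0.040. Markers of the other cells of the heart had 6 positive and 6 negative log2 fold changes and a median of -0.061 for cardiomyocytes, 5 and 7 with -0.036 for endothelium, 2 and 10 with -0.21 for fibroblasts, and 5 and 6 with -0.044 for myofibroblasts. Macrophage markers had 5 positive and 7 negative with a median of -0.38, Schwann cell markers 1 and 6 with -0.48, and atrial markers 1 and 4 with -1.60. Of the 100 tested genes of these 9 lists, counting each once, 0 passed and 5, 5.0%, had an unadjusted p under 0.05, beside 0.904% of all genes. These were Comp of the myofibroblast list with a log2 fold change of -1.24, Smoc2 of the fibroblast list with -0.65, Myl4 and Dkk3 of the atrial list with -6.86 and -2.61, and Mbp of the Schwann cell list with -0.81; both atrial genes were highest in WT 6, where Dkk3 had 96.0 CPM, against 2.56 to 9.19 CPM in KO hearts and 2.97 to 15.1 CPM in the other WT hearts.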

How the data were processed

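Polyadenylated RNA of 8 hearts was read as strand-specific paired ends on a DNBSEQ instrument, per the labels' protocols, 1 paragraph of which speaks of rat tissue although every sample is labelled mouse. HISAT and Bowtie2, with the build GRCm39, are listed in the submitters' processing notes, and the sources used here do not name the counting tool. Per the file headers, the authors deposited estimated counts, TPM and FPKM for each library in 1 table; between 4.32% and 5.89% of a library's count values were not whole. A further 8 per-sample columns held no values, and FPKM were not used.

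Estimated counts were rounded. Genes were kept by filterByExpr (minimum count 10, minimum total 15) and tested after TMM scaling by the robust quasi-likelihood F-test of edgeR 4.0.16 (R 4.3.3) and Benjamini-Hochberg adjustment at 0.05 over all 12826 genes. The biological coefficient of variation was 43.7%. Standard errors are the log2 fold change over the root of F; log2 CPM used a prior count of 2. TPM were used for levels between genes. Alternatives used DESeq2 1.42.0, limma 3.58.1 on log2(TPM + 0.1) and log2(TPM + 1), other scalings and filters, a replicate block and libraries left out. The fit was tested on simulated data. The lowest chi-square per degree of freedom between any 2 libraries was 7.29, so none was counted as a repeat.

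The 10 markers, the gene lists and the alternatives were chosen with earlier results of these data known. Named genes were the markers, Gpihbp1, the first 2 tested genes of each list, list members with an unadjusted p under 0.05 (at most 3), and the 5 genes closest to each marker profile. Fold changes of the first 2 genes are printed for lists of mural cell biology and left out for the others where no result on the markers turns on them. Arc, H3c14, Psca, Myl7, Sln, Pln, Tpm2, Cnn2, Smtn, Colec11 and Anpep were chosen after their values were seen.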

Additional observations from a re-analysis of the deposited data

Results flagged for a closer look

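In the KO hearts, KO 2 stood far from the other 3 for Tagln, at 112 CPM against 31.1 to 44.7 CPM, and for Cnn1, at 16.0 CPM against 2.06 to 2.83 CPM. These were 2 of 43 groups of 4 hearts examined over 22 genes, where chance gives about 1 in 20. Without KO 2 the log2 fold changes (KO over WT) were -0.98 for Tagln and -1.44 for Cnn1, with edgeR adjusted p-values of 0.9992 for both. WT 2 had similar levels, 141 and 15.7 CPM.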

How the results depend on the processing

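Over 19 alternatives, 0 of 10 markers passed in each. The lowest adjusted p of a marker was 0.237, for Tagln under the replicate block, and 0.837 among the other alternatives. Of 190 marker values, 145 kept their direction and 45 turned, all with fold changes that had not passed. The number of genes past the threshold was 8 with DESeq2 and 2 to 3 with 1 heart left out, 2 without WT 4 or WT 5, against 4 in the main test. The replicate block gave 168 genes, on 1 residual degree of freedom: the groups share only numbers 2 and 4, nothing in the labels ties equal numbers together, and the deviations of same-numbered hearts correlated at 0.908 and 0.11. Under the block, log2 fold changes turned to -0.22 for Acta2, -0.20 for Myh11, -0.24 for Rgs5, 0.17 for Cspg4, 0.35 for Myocd, -0.20 for Mylk and 0.40 for Srf. Limma on log2(TPM + 0.1) and log2(TPM + 1) moved the median of all genes to 0.32 and 0.25, and turned Tagln (0.089 and 0.081), Cnn1 (0.14 and 0.091), Pdgfrb (0.24 and 0.22), Cspg4 (0.29 and 0.23), Myocd (0.29 and 0.25), Srf (0.22 and 0.22), Pdgfa (0.17 and 0.16), Notch1 (0.26 and 0.21), Notch2 (0.26 and 0.16) and, with the smaller pseudocount, Mrtfa (0.016). With that pseudocount each of these values lay below the median of 0.32. Total-count scaling turned Cspg4 to 0.11, Myocd to 0.039 and Srf to 0.083, and testing without a filter turned Cspg4 to 0.0092. Leaving out KO 2, WT 2 and WT 6 together turned Myh11 to -0.16, Notch3 to -0.26, Abcc9 to -0.31, Mylk to -0.13, Srf to 0.15 and Pdgfa to 0.097. With 1 heart left out, log2 fold changes ran from -0.34 to 0.60 for Acta2, -0.98 to 0.13 for Tagln, -0.051 to 0.95 for Myh11, -1.44 to 0.88 for Cnn1, -0.23 to 0.023 for Pdgfrb, -0.096 to 0.39 for Notch3, -0.13 to 0.11 for Cspg4, -0.35 to 0.089 for Myocd, -0.23 to 0.83 for Abcc9, -0.055 to 0.56 for Mylk, -0.25 to 0.11 for Srf, -0.36 to 0.20 for Notch1 and -0.33 to 0.12 for Notch2; without a turn they ran from 0.064 to 0.64 for Rgs5, -0.83 to -0.29 for Myl9, -0.55 to -0.13 for Kcnj8, 0.020 to 0.60 for Kcnj11, -0.79 to -0.27 for Vtn, -0.59 to -0.066 for Mrtfa, -0.28 to -0.042 for Pdgfa and -0.79 to -0.22 for Pdgfb. The causes of these turns were not tested beyond the hearts or scaling each alternative changes. Depth limits Cnn1 most, with 10 reads in WT 5.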
